A study of Homo sapiens with 36 samples.

Results

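The core AP-1 sites are 1481 regions of the human genome at which JunB, Jun and JunD were all called as bound in both cell lines examined. They were chosen by the peak calls themselves: the peaks of the 6 Jun-family lists were merged on chromosomes 1 to 22, X and Y, and a merged region was kept when a peak of each of the 6 lists overlapped it and its 1-Mb bin held at least 1 gene start. The 1481 core regions made up 2.15% of the 68990 merged Jun-family regions in such bins. Binding by the 3 Jun proteins is therefore what defines them and is described below without a test.

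The study measured chromatin immunoprecipitation followed by sequencing (ChIP-seq) in A549, a lung adenocarcinoma line, and in BEAS-2B (B2B), an immortalized, non-cancerous bronchial epithelial line, with no treatment named in the labels. The labels give 36 samples in 18 groups of 2 replicates, of which 12 samples were Jun-family immunoprecipitations. Replicates were merged before peaks were called, so each list is 1 pool per line, differences between the lines have no replicate check, and every interval below covers counting error over regions only. H3K4me3 marked 4 of 5 simple epithelial genes (KRT8, KRT18, CDH1 and EPCAM, not KRT19) and 0 of 2 blood genes in either line, and it marked the lung lineage gene NKX2-1 but not SFTPB in both. VIM, a mesenchymal gene, was marked in both lines. Of 2 basal airway genes, TP63 was marked in A549 and not in B2B, and KRT5 was marked in neither. The paper describes TP63 expression as a feature of A549, and ascribes basal-like or squamous potential to B2B.

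AP-1 is a dimer of a Jun protein with a Fos, ATF or another Jun protein, joined through a leucine zipper, and its basic region grips a short palindromic DNA sequence. The usual site is written TGACTCA, or TGAGTCA on the other strand. Growth factor, stress and cytokine signals acting through MAP kinases raise AP-1 activity, and in epithelial cells most of its sites lie in enhancers away from promoters. TGACGTCA, the cyclic AMP response element (CRE), is a longer site used by CREB and by some Jun and ATF dimers.

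The strongest core regions show what the site looks like in sequence. The 8 regions below had the highest value for the lowest of their 6 within-list percentile ranks of fold enrichment, and 1 chromosome was left out of the printing. Each line gives the nearest protein-coding gene start, the hg38 position and the 101 bases around the median position of the 6 summits, read from the reference on the plus strand, with TGACTCA and TGAGTCA in capitals.

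DBNDD1, chr16:89995525-89995625: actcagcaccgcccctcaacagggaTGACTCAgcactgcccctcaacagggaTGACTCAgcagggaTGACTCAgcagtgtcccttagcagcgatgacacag
HPS1, chr10:98460947-98461047: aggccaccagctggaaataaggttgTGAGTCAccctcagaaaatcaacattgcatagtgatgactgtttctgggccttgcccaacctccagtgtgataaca
LDLRAD3, chr11:36149833-36149933: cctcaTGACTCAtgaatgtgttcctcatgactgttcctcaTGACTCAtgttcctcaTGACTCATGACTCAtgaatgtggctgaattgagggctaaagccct
PCCA, chr13:100392869-100392969: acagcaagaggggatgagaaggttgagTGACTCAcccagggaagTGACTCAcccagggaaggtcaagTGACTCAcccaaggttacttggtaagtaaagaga
RND3, chr2:150133778-150133878: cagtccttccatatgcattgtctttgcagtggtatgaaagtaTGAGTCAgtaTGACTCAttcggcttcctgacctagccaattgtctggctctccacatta
ELMO1, chr7:37032061-37032161: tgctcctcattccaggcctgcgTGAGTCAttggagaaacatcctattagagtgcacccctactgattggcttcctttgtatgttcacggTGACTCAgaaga
ATXN3L, chrX:13398606-13398706: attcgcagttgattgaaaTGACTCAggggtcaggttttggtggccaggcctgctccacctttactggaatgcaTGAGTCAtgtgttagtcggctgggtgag
NRP1, chr10:33134200-33134300: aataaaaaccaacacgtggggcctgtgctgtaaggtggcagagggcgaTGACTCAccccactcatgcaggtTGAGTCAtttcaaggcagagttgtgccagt

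All 8 windows held the AP-1 motif, and all but that near HPS1 held more than 1 copy. The window near LDLRAD3 held 4 copies within a short tandem array, and those near DBNDD1 and PCCA held 3 copies each, in repeated units. None of the 8 lay within 1 kb of a gene start: 5 lay in introns (of HPSE2, LDLRAD3, PCCA, ELMO1 and the non-coding gene LINC01203), 2 lay between genes, and the region near DBNDD1 lay in an exon of AFG3L1P, a transcribed pseudogene. Fold enrichment, the deposited ratio of the read pileup at a summit to the caller's local background, ranged over these 8 regions from 35.7 to 59.0 for JunB, 64.2 to 82.4 for Jun and 16.5 to 26.6 for JunD in A549. In B2B it ranged from 21.4 to 33.8 for JunB, 45.5 to 85.0 for Jun and 15.0 to 31.3 for JunD. Of the 5 on chromosomes 1 to 12, where all marks can be read, the region near NRP1, which encodes the semaphorin and VEGF co-receptor neuropilin-1, and that in LDLRAD3, a member of the LDL receptor family, were overlapped by H3K27ac and Med1 peaks in both lines. The other 3, listed under HPS1, RND3 (338 kb away) and ELMO1, had Med1 in A549 alone and H3K27ac in neither line.

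At the other end of the rule, where the lists end at a −log10 q of about 2, 2 of the 3 weakest core regions lay in an intron of MRTFA, which encodes an actin-regulated coactivator, and within 1 kb of a start near YBX3. Their lowest −log10 q was 2.37 and 2.58, in both cases in B2B JunD, and neither window held the AP-1 motif. For JunB, Jun and JunD the MRTFA region had 12.1, 32.1 and 6.22 in A549 and 6.79, 30.3 and 3.45 in B2B, and the region near YBX3 had 4.01, 12.2 and 3.76 in A549 and 5.10, 20.2 and 3.69 in B2B. Just outside the rule were 2326 regions with peaks in 5 of the 6 lists, and the missing list was A549 JunD in 1514 of them, B2B JunD in 561 and B2B JunB in 238. The 2 strongest of these lay in introns of SLC8A1, a sodium-calcium exchanger, and PDE1C, a phosphodiesterase. The SLC8A1 region had fold enrichments of 30.9, 74.9 and 19.5 for JunB, Jun and JunD in B2B, and 16.3 and 39.5 for JunB and Jun in A549, with no A549 JunD peak. The PDE1C region had 17.3, 50.9 and 11.4 in B2B and 21.2 and 37.5 for JunB and Jun in A549, again without A549 JunD. Core membership thus turned mainly on the 3 shorter lists: A549 JunD, B2B JunB and B2B JunD held between 8563 and 9639 peaks, while A549 JunB, A549 Jun and B2B Jun held 28068, 35602 and 45047.

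A small group of core regions stood apart. In 24 of the 1481 (1.62%, 95% Wilson interval 1.09 to 2.4) the window of 101 bases held GGAAT or ATTCC at least 4 times, the unit of a satellite repeat found around centromeres. Of these, 11 lay within chr1:143184527-143267750, and 8 lay on chromosome 16. None of the 24 held the AP-1 motif. Their median fold enrichment for Jun was 3.13 in A549 and 3.51 in B2B, against 36.3 and 31.6 in the other core regions, while A549 JunB reached 16.1 against 19.4. All 24 were among the 28 core regions with Jun under 6-fold in both lines. Satellite-like windows made up 0.249% of regions called for all 3 proteins in A549 alone, 0.238% of those in B2B alone and 0.557% of regions in none of the other sets. In regions in 5 of 6 lists they made up 0.774% (0.490 to 1.22), an interval that overlapped that of the core. Results below are given over all core regions, and those that changed side without the satellite-like windows are named.

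Across the core, the lists differed widely in height. Median fold enrichment was 19.4 for JunB, 35.9 for Jun and 7.33 for JunD in A549, and 8.77, 31.4 and 7.14 in B2B. The interquartile range for Jun was 26.4 to 47.4 in A549 and 23.1 to 41.8 in B2B. Core regions ranked near the top of the long lists, with a median percentile of 94.2 in A549 Jun, 93.5 in A549 JunB and 94.5 in B2B Jun, and lower in the short lists, between 75.7 and 77.9. They took 4.57% of all A549 Jun peaks but 42.1% of its 1000 strongest, and 37.7% of the 1000 strongest of B2B Jun. In each of the 6 lists fewer of the 1000 strongest peaks lay inside the core than outside it, with shares between 37.7% and 49.4%.

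**Figure D1:**
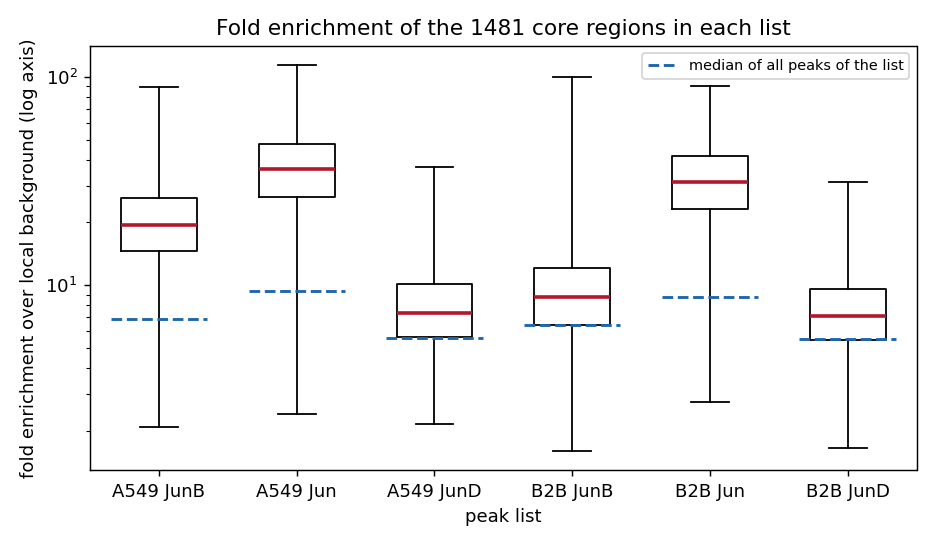
Fold enrichment over the caller's local background (log axis) of the 1481 core regions in each of the 6 Jun-family lists. Boxes span the quartiles with the median in red, whiskers reach the lowest and highest region, and the dashed blue line is the median of all peaks of that list; the core median is far above it for Jun in both lines (35.9 against 9.34 and 31.4 against 8.78) and close to it for JunD (7.33 against 5.57 and 7.14 against 5.52).

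The order of the core regions by strength followed the cell line more closely than the protein. Over the 1481 regions, the Spearman correlation between lists of the same line was 0.76 for Jun and JunD, 0.64 for JunB and JunD and 0.53 for JunB and Jun in A549. In B2B the same pairs gave 0.74, 0.69 and 0.66. Between the lines, the same protein gave 0.39 for Jun, 0.27 for JunB and 0.25 for JunD. The least alike pair was A549 JunB and B2B Jun, at 0.07. These values describe the points. Lists of the same line share its copy number, and whether they share a chromatin preparation or local background is not given in the labels. The part of these in the correlations was not tested. Without the satellite-like windows the values between the lines were 0.36 for Jun, 0.26 for JunB and 0.21 for JunD. In percentile ranks, the median absolute gap between the lines for Jun was 4.17 points, and the extremes were 42.1 points lower and 67.0 points higher in A549.

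**Figure D2:**
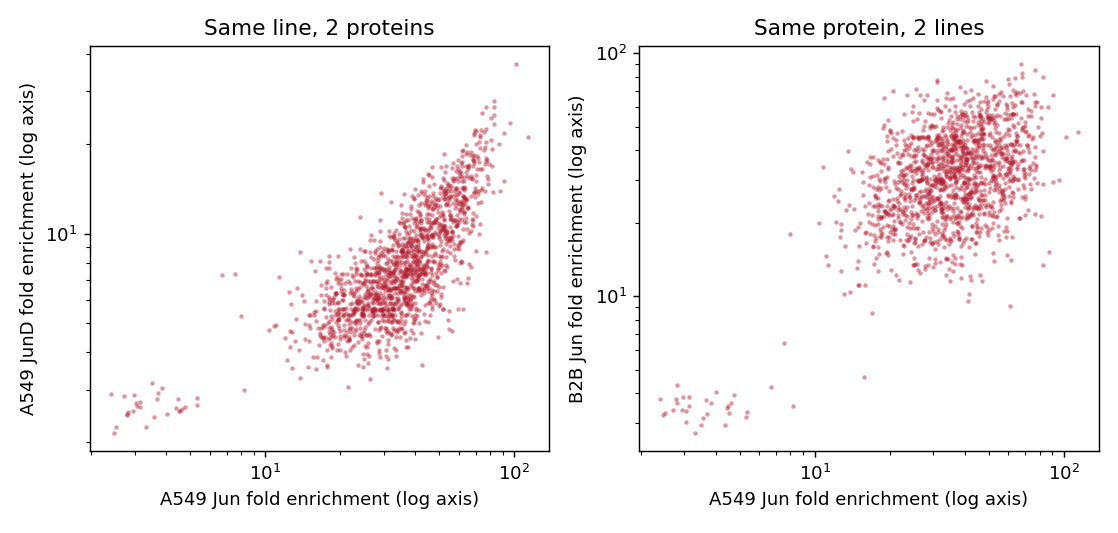
Each point is 1 of the 1481 core regions, on log axes of fold enrichment. On the left Jun is set against JunD in A549 (Spearman correlation 0.76), on the right Jun in A549 against Jun in B2B (0.39); the cloud on the right is wider, and the detached group with Jun under 6-fold in both lines holds 28 regions, 24 of them satellite-like.

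Core regions were compact. Their median width was 619 bp (quartiles 496 and 804), and 1268 of them (85.6%, 83.7 to 87.3) held exactly 1 peak of each list. The 6 summits lay within 100 bp of one another in 1294 regions (87.4%, 85.6 to 89.0) and within 50 bp in 785 (53%, 50.5 to 55.5), with a median span of 49 bp. The widest core region measured 16238 bp. In the 1134 core regions with an AP-1 motif near the centre, the middle base of the nearest motif lay a median of 11 bp from the median summit, and the summits of single lists lay 12 to 15 bp from it.

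The AP-1 motif was the common feature of the core that the rule had not used. It stood within 50 bp of the centre in 1134 of 1481 core regions (76.6%, 74.3 to 78.7). It occurred in 1.59% of windows of the same length 2 kb to either side, and in 37.2% of all 68990 Jun-family regions. Regions called for all 3 Jun proteins in A549 and for none in B2B (A549-only regions, 2407) held it in 27.8%, and the converse B2B-only regions (840) held it in 56.1%. The core exceeded the A549-only regions by 48.8 percentage points (45.9 to 51.5, Newcombe interval for 2 shares) and the B2B-only regions by 20.5 points (16.5 to 24.5). Against the regions in 5 of 6 lists, with 72.3%, the difference was 4.3 points (1.45 to 7.09).

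The first difference was smaller away from gene starts and the second was not. More than 1 kb from any start, the core held the motif in 76.4% (73.9 to 78.6), the A549-only regions in 49.0% and the B2B-only regions in 55.7%, and the differences were 27.4 points (23.5 to 31.2) and 20.7 points (16.5 to 24.9). Within 1 kb of a start, 77.9% of 195 core regions held the motif (71.6 to 83.2), against 12.7% of 1404 A549-only regions. Among regions with Jun fold enrichment inside the core's quartiles in that line, the differences were 21.8 points (16.3 to 27.1) for A549 and 22.2 points (16.7 to 27.7) for B2B.

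**Figure D3:**
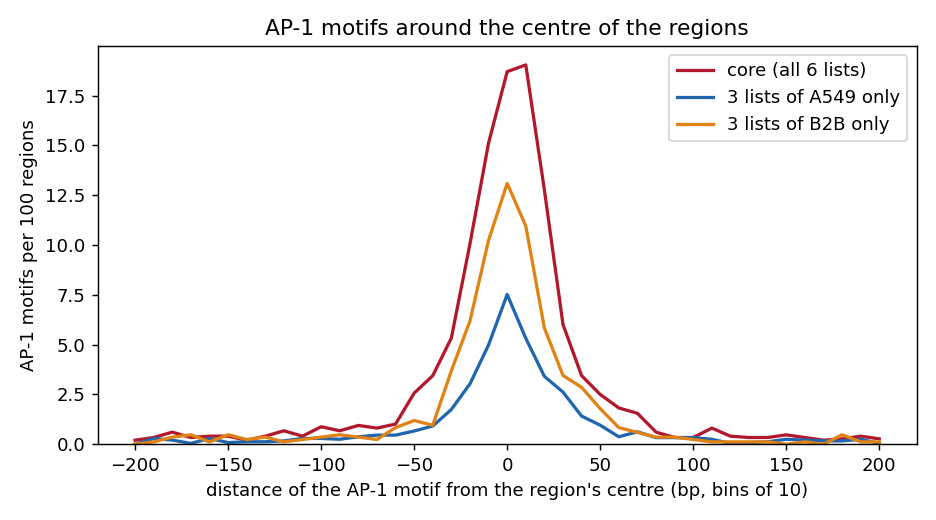
AP-1 motifs per 100 regions in bins of 10 bp, by distance from the centre of the region, for the core (red), A549-only (blue) and B2B-only (orange) regions. All 3 curves peak within 10 bp of the centre and fall to about 1 or fewer per 100 regions beyond 100 bp, and the core curve is the highest throughout the central 50 bp to either side.

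Core regions also carried more copies of the site. Among regions with at least 1 motif in the window, 2 or more copies were found in 255 of 1134 core regions (22.5%, 20.2 to 25.01), in 10.8% of 669 A549-only regions, in 3.82% of 471 B2B-only regions and in 12.1% of 1681 regions in 5 of 6 lists. The core exceeded these by 11.7 points (8.25 to 15.0), 18.7 points (15.5 to 21.5) and 10.4 points (7.55 to 13.3). Within the core's quartiles of Jun fold enrichment, an alternative chosen after seeing the data, the first 2 differences were 6.97 points (1.35 to 11.99) and 18.3 points (13.8 to 22.2). The longer forms ATGACTCAT and ATGAGTCAT, which extend the site by 1 base at each end and are counted within AP-1 as well, were held by 22.2% of core regions with a motif, against 11.7% (difference 10.6 points, 7.04 to 13.9) and 17.0% (5.24 points, 0.906 to 9.24). Against regions in 5 of 6 lists, with 19.3%, the interval of the difference included 0 (2.89 points, −0.149 to 5.99).

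The neighbouring motifs of TEAD and forkhead (FOX) factors placed the core between the regions of the single lines. GGAATG or CATTCC, the site of the TEAD factors through which YAP and TAZ act, was held by 15.9% of core regions more than 1 kb from a start, by 7.48% of A549-only and by 24.6% of B2B-only regions at that distance. The core was thus 8.39 points higher (5.78 to 10.9) than the first and differed from the second by −8.75 points (−12.4 to −5.17), against a flanking level of 5.84% over all core regions. TGTTTAC or GTAAACA, a site of forkhead (FOX) factors, ran the other way, with 3.34% of the core, 8.67% of A549-only and 0.902% of B2B-only regions, and differences of −5.33 points (−7.42 to −3.38) and 2.44 points (1.17 to 3.66). TGTGGTT or AACCACA, a site of RUNX factors, was held by 2.64%, 2.59% and 8.89%, and the core differed from the B2B-only regions by −6.25 points (−8.58 to −4.17) but not detectably from the A549-only regions (0.05 points, −1.34 to 1.36). GGGCGG or CCGCCC, the GC box of SP and KLF factors, was found in 2.90% of all core regions and 28.9% of all A549-only regions, and in 2.49% and 5.38% away from starts. Away from starts, regions in 5 of 6 lists held the TEAD site in 19.2%, and the core differed from them by −3.35 points (−5.96 to −0.666). Jun-family regions in none of these sets held it in 15.9%. For FOX, RUNX and the GC box the interval of the core's difference from regions in 5 of 6 lists included 0. Over all 68990 Jun-family regions these motifs were held by 14.5% (TEAD), 3.28% (FOX), 3.55% (RUNX) and 6.40% (GC box). The ETS letters CCGGAAG or CTTCCGG and the C/EBP letters TTGCGCAA were rare in the core, at 0.473% and 0.203%, against 1.11% and 0.0855% of all regions.

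**Figure D4:**
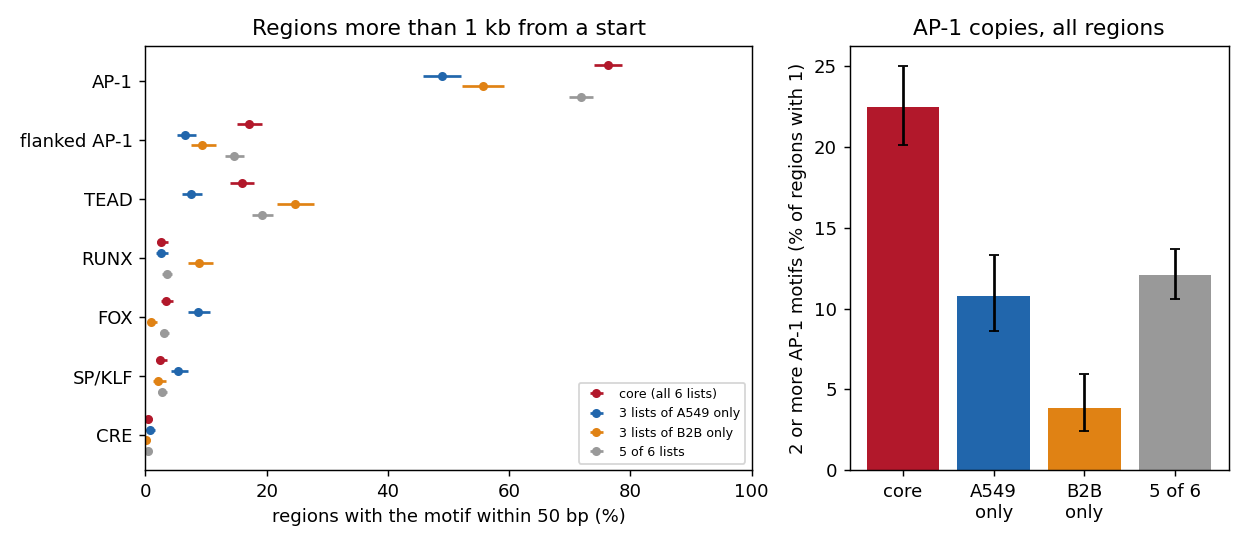
Left, percent of regions more than 1 kb from a gene start with each motif within 50 bp of the centre, and right, percent of motif-bearing regions with 2 or more AP-1 motifs, with 95% Wilson intervals. Core regions (red) have the highest share of AP-1 (76.4%) and of repeated AP-1 motifs (22.5%), and they lie between A549-only (blue) and B2B-only (orange) regions for TEAD and FOX; grey marks regions in 5 of 6 lists.

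The remaining 347 core regions had no AP-1 motif within 50 bp of the centre. In 99 of them the motif stood elsewhere in the merged region, in 124 the window held TGAATCA or TGATTCA, which differ from the consensus in its middle base, in 24 it was satellite-like and in 6 it held the CRE, with overlap between these classes. None of these was found in 128 regions. How often the first 2 classes occur in flanking windows or in other Jun-family regions was not computed. The CRE was rare in the core, in 11 of 1481 windows (0.743%, 0.415 to 1.33) against 4.40% of A549-only regions (difference of −3.66 points, −4.61 to −2.71), and away from starts the interval of that difference included 0 (−0.331 points, −1.14 to 0.343). Over all 68990 regions the CRE was held by 1.09% and the longer AP-1 forms by 6.28%. The strongest core regions of 2 kinds without the motif are printed with any CRE in capitals. The first, with a CRE, overlapped the non-coding gene HCG20 within 1 kb of an annotated start. The second lay in an intron of LINC02869, 62.6 kb from the nearest start of TGFB2.

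HCG20, chr6:30781972-30782072: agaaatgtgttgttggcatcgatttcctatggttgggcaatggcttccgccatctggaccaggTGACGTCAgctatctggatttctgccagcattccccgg
TGFB2, chr1:218496714-218496814: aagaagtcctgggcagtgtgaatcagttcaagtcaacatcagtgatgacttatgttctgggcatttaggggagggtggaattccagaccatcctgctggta

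At the CRE region near HCG20, Jun stood high in both lines (53.7-fold in A549, 47.3-fold in B2B), while JunB was 8.92 and 7.03 and JunD 9.46 and 6.95. The TGFB2 region, near the gene of a transforming growth factor beta ligand, showed values of 34.7, 61.4 and 12.3 in A549 and of 14.3, 56.1 and 13.2 in B2B. The HCG20 region thus stood above the core median for Jun and below it for JunB in both lines, while the TGFB2 region stood above the median of all 6 lists.

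Some core regions shared longer stretches of sequence. Of 1457 windows that were not satellite-like, 79 shared a run of 20 bases with another core window, forming 18 families on that criterion. In a family of 12 regions, only shared runs that held the middle-base variant of the site were considered, so its presence in the run is not a result. Of the most common of these runs, 3 copies are printed below, from 20 bases before to 20 bases after the site. They are oriented alike, with TGATTCA in capitals.

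chr2:29108391-29108437, plus strand: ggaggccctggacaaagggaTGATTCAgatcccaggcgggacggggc
chr5:142960453-142960499, minus strand: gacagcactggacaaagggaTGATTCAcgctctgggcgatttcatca
chr12:46549948-46549994, plus strand: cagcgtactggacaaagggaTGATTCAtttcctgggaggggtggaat

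In this family 4 of 12 core windows held the consensus site. That run stood in 5 core windows and had 221 copies on the analysed chromosomes of hg38, more than any of its 21 single-base variants within the site. The Jun medians of the 12 regions were 36.0 in A549 and 32.4 in B2B. On chromosomes 1 to 12, Med1 overlapped 5 of its 9 regions in A549 and 0 of 9 in B2B, and H3K27ac overlapped 0 of 9 in both lines.

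Core regions lay mostly away from promoters, as did every other set of Jun-family regions except the A549-only regions. Only 195 of 1481 (13.2%, 11.5 to 15.0) were within 1 kb of a gene start of GENCODE release 44, whereas 826 (55.8%) were in introns, 421 (28.4%) between genes and 39 (2.63%) in exons. A549-only regions were within 1 kb of a start in 58.3%, a difference of −45.2 points (−47.7 to −42.5), and B2B-only regions in 7.62%, a difference of 5.55 points (2.97 to 7.97). Against regions in 5 of 6 lists (14.7%) the interval included 0 (−1.58 points, −3.79 to 0.704). Of the 61936 Jun-family regions in none of these sets, 19.1% (18.8 to 19.5) were within 1 kb of a start. Their median distance to a start was 7951 bp. The median distance to a start was 9266 bp in the core, 282 bp in A549-only and 12764 bp in B2B-only regions. Base composition followed the same order over these 3 sets, with a GC content of 47.3% ± 7.86 (SD over 1481 windows) in the core, 59.4% ± 15.5 in A549-only and 45.7% ± 7.11 in B2B-only regions.

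The chromatin marks were compared on chromosomes 1 to 12, which every list covered (4 of the 16 lists, none of them Jun-family, ended before the last chromosomes), with 1082 core regions. H3K27ac, an acetylation of active enhancers and promoters, overlapped 444 (41.04%, 38.1 to 43.99) according to the A549 list and 337 (31.1%, 28.5 to 33.97) according to the B2B list. Med1, a subunit of the Mediator coactivator, overlapped 56.3% in A549 and 42.8% in B2B. RNA polymerase II (pol II) overlapped 74.1% and 51.9%, and H3K4me3, a methylation of active promoters, 37.9% and 15.9%. In windows of the same width 10 kb to either side of the core, the shares were between 2.77% and 9.01% for these 8 lists.

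Over the same 1082 regions, each of the 4 marks was called more often in A549 than in B2B. The paired differences were 9.89 points for H3K27ac (7.67 to 12.1), 13.5 for Med1 (interval 10.3 to 16.6), 22.2 for pol II (interval 19.1 to 25.2) and 22 points for H3K4me3 (19.2 to 24.8). They stayed between 9.57 and 22.2 points in the 951 core regions more than 1 kb from a start. On these chromosomes the A549 and B2B lists held 28190 and 24654 peaks for H3K27ac, 17994 and 18546 for Med1, 33170 and 16953 for pol II, and 21589 and 17230 for H3K4me3. The part of list length in these differences was not tested.

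H3K27ac covered 311 core regions in both lines (28.7%, 26.1 to 31.5), 133 in A549 alone, 26 in B2B alone and 612 in neither (56.6%, 53.6 to 59.5). Jun fold enrichment, whose peak calls chose the regions, had medians of 39.4 in A549 and 28.6 in B2B where only A549 was acetylated, close to the 38.5 and 28.1 where both lines were. Where only B2B was acetylated the medians were 30.8 and 44.8, and where neither was they were 34.3 and 35.1. For Med1 they were 41.8 and 30.9 in the 235 regions marked in A549 alone, 38.5 and 29.6 in the 374 marked in both, and 31.0 and 38.5 in the 89 marked in B2B alone. B2B was thus the higher line where it alone was marked, while A549 was higher both where it alone was marked and where both were. Both H3K27ac and Med1 were present in both lines at 229 core regions (21.2%, 18.8 to 23.7), and none of the 4 marks was called in either line at 159 (14.7%, 12.7 to 16.9).

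Within each line the core was set against the regions of that line alone. In A549 the core was less often marked than A549-only regions, with differences of −28.1 points for H3K27ac (−31.8 to −24.4), −18.4 for Med1 (interval −22 to −14.7), −9.19 for pol II (interval −12.4 to −6.02) and −31.6 for H3K4me3 (−35.2 to −27.9). These directions did not hold away from promoters. More than 1 kb from a start the core was higher by 6.02 points for Med1 (1.10 to 10.9) and 8.27 points for pol II (3.66 to 12.9), and the intervals for H3K27ac (3.09 points, −1.66 to 7.76) and H3K4me3 (−0.973 points, −5.67 to 3.68) included 0. In B2B the core was more often marked than B2B-only regions, by 15.5 points for H3K27ac (11.5 to 19.4), 13.1 for Med1 (interval 8.45 to 17.7), 6.36 for pol II (interval 1.46 to 11.2) and 4.86 for H3K4me3 (1.48 to 8.04). Away from starts the differences for H3K27ac (12.9 points, 8.74 to 16.9) and Med1 (10.7 points, 5.84 to 15.5) kept intervals above 0, while those for pol II (4.36 points, −0.783 to 9.45) and H3K4me3 (1.25 points, −2.11 to 4.42) did not.

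Among regions with Jun fold enrichment inside the core's quartiles, the A549 differences were 6.57 points for H3K27ac, 6.50 for Med1, 6.13 for pol II and −1.91 for H3K4me3, each with an interval that included 0. In B2B, H3K27ac kept a difference of 14.2 points (8.50 to 19.5), while those for Med1 (5.28 points, −1.21 to 11.6), pol II (−2.48 points, −9.15 to 4.22) and H3K4me3 (2.45 points, −2.23 to 6.84) no longer had intervals above 0.

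Regions in 5 of 6 lists, most of which lacked only A549 JunD, gave the nearest comparison. In A549 the core was marked more often than these by 15.1 points for H3K27ac (11.5 to 18.6), 30.3 for Med1 (interval 26.6 to 33.9), 29.2 for pol II (interval 25.6 to 32.6) and 14.1 for H3K4me3 (10.6 to 17.7). In B2B the differences were 4.93 points for H3K27ac (1.498 to 8.41), 7.74 for Med1 (interval 4.03 to 11.5) and 7.24 for pol II (interval 3.43 to 11.0), and that for H3K4me3 had an interval that included 0 (0.858 points, −1.86 to 3.67).

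**Figure D5:**
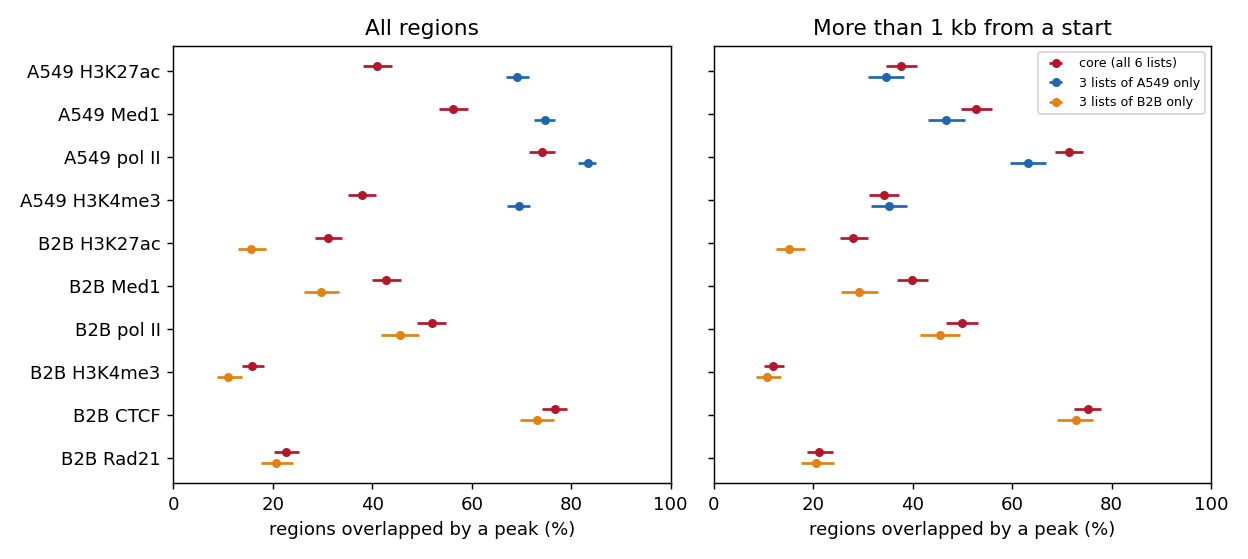
Percent of regions on chromosomes 1 to 12 overlapped by a peak of each list, for the core (red) and for the regions of the same line alone (A549 blue, B2B orange), with 95% Wilson intervals. Over all regions (left) A549-only regions are marked more often than the core, for example 69.2% against 41.04% for H3K27ac, while more than 1 kb from a start (right) the A549 shares are 34.6% against 37.6% for H3K27ac and 63.2% against 71.5% for pol II, and in B2B the core stays higher for H3K27ac (28.1% against 15.2%) and Med1 (39.9% against 29.1%).

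CTCF and Rad21, the insulator protein and a cohesin subunit, were measured here in B2B only. A CTCF peak overlapped 831 of 1082 core regions (76.8%, 74.2 to 79.2), against 73.2% of B2B-only regions (difference 3.62 points, −0.590 to 7.94), 23% of A549-only regions and 4.81% of windows 10 kb to either side. Without the satellite-like windows the difference from the B2B-only regions was 4.70 points (0.501 to 9.0). Rad21 overlapped 245 (22.6%, 20.2 to 25.2), and 20.7% of B2B-only regions (difference 1.98 points, −2.12 to 5.92). Unlike CTCF, Rad21 was more frequent at A549-only regions, with 53.1% (50.6 to 55.6), but more than 1 kb from a start it overlapped 9.12% of these (7.18 to 11.5) and 21.2% of the core (18.8 to 23.95). Both lists together overlapped 221 core regions and CTCF without Rad21 610 (56.4%, 53.4 to 59.3).

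The CTCF peaks at the core differed in sequence from those outside Jun-family regions, and those at other Jun-family regions lay between. A 12-base core of the CTCF consensus stood within 50 bp of the summit in 1.45% of the 1309 CTCF peaks at core regions (0.931 to 2.26), against 3.46% of the 17652 at other Jun-family regions (3.20 to 3.74) and 13.9% of the 42264 outside Jun-family regions. The AP-1 motif stood there in 35.5% (33.0 to 38.2), 13.7% (13.2 to 14.2) and 1.15%. Rad21 peaks at core regions, at other Jun-family regions and outside them held that CTCF sequence in 2.25%, 3.60% and 8.39%. They held the AP-1 motif in 22.2%, 5.43% and 0.637%. Med1 summits at core regions held the AP-1 motif in 42.7% in A549 and 32.7% in B2B, against 8.54% and 6.83% at other Jun-family regions. For pol II summits the shares were 22.1% and 14.2%, against 8.83% and 4.79%. The nearest CTCF summit lay a median of 50 bp from the centre of the core region, Med1 summits 45 bp in A549 and 69 bp in B2B, pol II summits 84 and 108 bp, Rad21 86 bp, and H3K27ac and H3K4me3 summits between 222 and 311 bp. Whether CTCF itself was bound at the core regions was not tested.

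The core regions were sparse around genes. Of 20007 protein-coding gene names, 1605 had a core region within 50 kb of a start (8.02%) and 115 had one within 1 kb (0.575%). A start here is that of any annotated transcript of the gene, so it can lie inside the gene. The median gene had 0, and 189 genes had 2 or more within 50 kb. Spacing was also wide along the chromosome, where 1323 core regions had no other within 12.5 kb, 58 clusters held 2 and 11 held 3 or more. Of those 11, 5 were satellite-like blocks. The others had MACF1, NEBL, VMP1, CRYBA4, ZMAT2 and CDK6 as nearest protein-coding genes, with CRYBA4 as far as 491 kb away. The CDK6 cluster, in introns of the gene of a cyclin-dependent kinase of G1, had Jun fold enrichments of 51.1, 18 and 43.0 in A549 and 40.8, 19.9 and 21.99 in B2B, and AP-1 motifs in 3 of 3 regions.

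The genes with most core regions within 100 kb were AHR and SMAD3 with 6 each, then ME3, MTHFD1L, NAV1 and VMP1 with 5. Another 10 tied at 4, namely ARHGAP26, CSRP1, the unnamed gene ENSG00000283321, MACF1, MICAL2, NAV2, PARD3, RPTOR, TSC22D2 and TUBD1, of which the first 4 by name are described. The unnamed gene shared its 4 regions with AHR, and CSRP1 shared its 4 with NAV1. AHR encodes the aryl hydrocarbon receptor, a sensor of combustion products in airway cells. Its 6 regions had Jun fold enrichments of 49.9, 31.0, 20.1, 48.0, 67.1 and 49.5 in A549 and 34.4, 77.6, 22.6, 52.2, 38.8 and 53.8 in B2B, in order along chromosome 7. The second, 22.4 kb from the nearest AHR start, had JunB values of only 4.92 in A549 and 5.43 in B2B beside its high B2B Jun value. H3K27ac overlapped none of the 6 in either line.

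SMAD3 encodes the transducer of transforming growth factor beta signals. Its 6 regions included 1 at a start of the gene (chr15:67125468-67126167), with 11.2, 36.1 and 5.00 for JunB, Jun and JunD in A549 and 7.66, 35.7 and 9.18 in B2B. The other 5 lay in introns of annotated genes, 7.15 to 39.2 kb from the nearest SMAD3 start, and 4 of the 6 held the AP-1 motif. At MTHFD1L, which encodes a mitochondrial enzyme of folate metabolism, none of the 5 regions held the motif within 50 bp. Their Jun values ran from 29.1 to 77.3 in A549 and from 20.8 to 34.6 in B2B, and those for JunB from 10.2 to 27.9 and from 4.27 to 11.0. A549 was the higher line for Jun at all 5. H3K27ac, Med1 and pol II were present in both lines at 4 of the 5.

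NAV1, whose product binds microtubule ends, and CSRP1, which encodes an actin-associated LIM protein, shared a stretch of chromosome 1 in which Jun ranged over the 5 regions from 20.3 to 40.9 in A549 and from 12.9 to 36.7 in B2B. ME3, a mitochondrial malic enzyme, had a neighbouring pair of regions outside the gene, 68.2 and 70.9 kb from its nearest start. They lay in introns of other annotation and had A549 JunB at 41.5 and 29.5, beside 23.8 and 5.35 in B2B. VMP1, which encodes a membrane protein of autophagosome formation, had a region 0.058 kb from a start with Jun at 60.4 in A549 and 35.6 in B2B and no AP-1 motif. MACF1, a linker of microtubules to actin, had 4 regions with Jun between 18.5 and 43.8 in A549 and between 20.9 and 49.96 in B2B, and ARHGAP26 had 4 between 28.4 and 65.6 and between 29.9 and 54.4.

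Among genes of AP-1 itself, 4 of 19 had a core region within 50 kb: FOSL1 (Fra-1), ATF3, ATF7 and MAFF, against 8.02% of all genes. The region 15.3 kb from FOSL1 (chr11:65915509-65916136) had 33.7, 46.1 and 7.44 for JunB, Jun and JunD in A549 and 5.64, 18.4 and 2.85 in B2B. It held the AP-1 motif and was covered by H3K27ac, Med1 and pol II in both lines. At ATF3, a stress-induced subunit, the intronic region lacked the motif and had Jun at 56.1 in A549 and 25.1 in B2B. No gene of the JUN and FOS families other than FOSL1 had a core region at that distance. Of the MAP kinase feedback genes, 2 of 15 had one: DUSP1, a MAP kinase phosphatase, at 7.13 kb, and SPRED2, an inhibitor of Ras signalling. The SPRED2 region lay at an internal annotated start (Jun 58.9 in A549 and 53.6 in B2B).

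The YAP-TEAD target genes had a core region within 50 kb in 6 of 20 (30%, 14.5 to 51.9), with 10 regions in all, against 8.02% of all genes. MYOF, a membrane-repair protein, had 3, and TEAD1, the factor itself, and CRIM1 had 2 each. At ANKRD1, a classic YAP target, the region lay 0.263 kb from the start (chr10:90920896-90921926) and had the highest B2B Jun value of the whole core, 90.1, with 67.7 in A549 and 20.7, 17.7, 10.8 and 16.3 for A549 JunB, B2B JunB, A549 JunD and B2B JunD. It held no AP-1 motif within 50 bp and was covered by all 4 marks in both lines. The 3 MYOF regions had Jun between 37.0 and 54.6 in A549 and between 33.6 and 37.2 in B2B.

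Integrin and laminin genes counted 7 of 21 within 50 kb (33.3%, 17.2 to 54.6). The share over all genes, to be read beside each such count here, was 8.02%. ITGB5 had 2 regions inside the gene, 0.189 and 2.16 kb from its nearest annotated start. These were different starts, and both were internal to the gene. The first region had Jun at 50.1 in A549 and 18.7 in B2B and carried all 4 marks in A549 and none of them in B2B. ITGA3 had JunB at 46.9 in A549 and 8.95 in B2B. Actin and focal adhesion genes counted 6 of 23 (26.1%, 12.5 to 46.5). Among them was LIMA1, an actin-binding protein, with 2 regions of which 1 lay at an internal annotated start. EGF receptor and ligand genes counted 2 of 12: EGFR, with 2 intronic regions at 34.97 and 46.7 for Jun in A549 and 31.0 and 26.2 in B2B, both acetylated in both lines, and EREG, which encodes the ligand epiregulin, at 62.1 and 26.8, acetylated in A549 and not in B2B. Interleukin and chemokine genes counted 5 of 17 (29.4%, 13.3 to 53.1). At CCL20, a chemokine gene, a region lay just past the end of the gene, 2.99 kb from its nearest annotated start. That region had Jun at 53.7 in A549 and 41.4 in B2B and carried all 4 marks in A549 and none in B2B. At IL6 the values were 43.6 and 28.6, with H3K27ac in A549 alone. Urokinase and matrix protease genes counted 2 of 19.

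The p53 target genes counted 3 of 14 and the NRF2 target genes 1 of 14 (TXNRD1). The lists meant as contrasts counted 5 of 25 for cytosolic ribosomal proteins (20%, 8.86 to 39.1), 1 of 15 for T cell and blood markers (CD8A) and 1 of 12 for neuron markers (CAMK2A). The interval of the ribosomal list overlapped those of the YAP-TEAD, integrin and laminin, actin, and interleukin and chemokine lists. Of all protein-coding genes, 8.02% had a core region within 50 kb of a start and 0.575% had one within 1 kb. The oncogenes named in the supplement of the paper are a list added after the data had been seen. Of their 605 matched names, 64 (10.6%, 8.37 to 13.3) had a core region within 50 kb and 10 had one within 1 kb. The first 8 of those 10 by name were CLIP1, GAS7, KLF6, LMNA, LRIG3, PAX8, SMAD3 and STAT6. STAT6, which mediates interleukin-4 signals, had Jun at 52.3 in A549 and 14.04 in B2B, and LRIG3 had 19.8 in A549 and 53.1 in B2B. The median member had 0 core regions in each of the 14 lists, as had the median gene. The counts are descriptions.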

How the data were processed

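ChIP-seq samples of A549 and B2B, 2 replicates per group in 18 groups (inputs included), were grouped by the titles given in the labels. The authors aligned reads to hg38 with Bowtie2 2.4.4, removed duplicates, merged the 2 replicates of a group, scaled them to CPM (SAMtools 1.13). Peaks came from MACS2 2.2.7.1, whose options and control are not given in the sources used here. The deposited lists hold, for each peak, a fold enrichment (a ratio of pileup to the caller's local background), a −log10 q value ending at about 2, and the distance of the summit from the peak start in bp. Read depth per sample is not in these lists and is unknown here, so the number of regions sets the precision.

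Overlapping Jun-family peaks (chromosomes 1 to 22, X, Y) were merged at an overlap of at least 1 bp, and regions in 1-Mb bins without a GENCODE release 44 start were dropped. This removed 3 of 1484 regions shared by all 6 lists. The centre of a region is the median of the summits of the strongest peak of each list. Motifs were counted on both strands within 50 bp of it. Shares carry 95% Wilson intervals and differences Newcombe intervals (paired between lines over the same regions), for counting error only. No p-values were computed, because each list pools its replicates. The 16 lists include 4 with no peaks past some position (H3K27ac, Med1 and pol II of A549, Med1 of B2B), so marks were compared on chromosomes 1 to 12. The sequence was that of the hg38 reference, printed there without repeat masking.

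Named regions were the 8 core regions whose lowest percentile rank was highest, the 3 with the smallest lowest −log10 q and the 2 strongest in 5 of 6 lists. Named genes were those nearest to them, the 10 with most core regions within 100 kb, and, per gene list, members with a core region within 1 kb (first 8 by name) and the 4 with most within 50 kb. A CRE region, a region without motifs, the CDK6 cluster and the oncogene list (605 of 618 names matched) were added later. Members and lists were chosen with earlier results of these data known. Python 3.11.15, NumPy 2.4.6, pandas 2.3.3, pysam 0.24.0, Matplotlib 3.10.9, samtools 1.23.1 and bedtools 2.31.1 were used, and merging and motif counts were tested on simulated data. Some named items and sequences are not reported here.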

Additional observations from a re-analysis of the deposited data

Results flagged for a closer look

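Outside chromosomes 1 to 22, X and Y, which the comparisons did not use, the Jun-family peaks merged into 519 regions, and 5 of these, each on a different sequence of the assembly, were overlapped by all 6 lists. Overlap by all 6 lists is the criterion that defines the core, so the count is a description. No mark, motif or gene was examined there.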

How the results depend on the processing

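Of 112 alternatives over 22 results, 96 left unchanged whether the interval excluded 0, or stayed within 1.5 times for counts, and all of these but that for Rad21 within the core's quartiles of Jun fold enrichment kept their direction. Among the 96 were all 16 for the AP-1 motif, all 8 for position within 1 kb of a start and all 12 for A549 against B2B. Within the core's quartiles of Jun fold enrichment, the core minus A549-only difference became 6.57 points for H3K27ac, 6.50 for Med1, 6.13 for pol II and −1.91 for H3K4me3. More than 1 kb from a start it became 3.09, 6.02, 8.27 and −0.973. The core minus B2B-only difference within the quartiles was 5.28 for Med1, −2.48 for pol II and 2.45 for H3K4me3, and that for Rad21 turned from 1.98 to −0.489 with intervals that included 0 in both cases. More than 1 kb from a start it was 4.36 for pol II and 1.25 for H3K4me3. The intervals of these values included 0 except for Med1 and pol II in A549 away from starts. Fewer regions enter these alternatives, and the cause was not tested. Leaving out satellite-like windows, an alternative chosen after seeing the data, gave 4.70 points for CTCF (0.501 to 9.0). Genes with a core region numbered 495 at 10 kb and 2743 at 100 kb. No paired analysis was possible because each list pools both replicates of its group, and for the same reason no replicate could be left out. Depth is unknown, and a region missing from the 3 short lists may fall below their cut.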
